A study of Mus musculus with 6 samples.

Results

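Interferon-gamma and 8 interleukins were followed across 6 arrays of mouse cardiac grafts: Ifng, Il2, Il6, Il1b, Il10, Il12b, Il15, Il18 and Il33. The genes were chosen by name, and every probe set that the array annotation assigns to them was taken. All 9 were on the array, among 12393 genes with a probe set of their own. Il12b had 2 probe sets and the other 8 genes had 1 each, and no probe set was shared with another gene.

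Total RNA of the grafts was measured on 1 oligonucleotide array per group. Allografts came from mice given ABH4 (4-amino tetrahydrobiopterin, 50 mg/kg every 8 h), BH4 (tetrahydrobiopterin, 50 mg/kg every 8 h), NIL (N-imino ethyl-L-lysine, 5 mg/kg every 8 h) or CsA (cyclosporin A, 15 mg/kg every 24 h). Further arrays held an untreated allograft and an untreated syngraft, in that order labelled Allogen and Syngen. The labels state neither the strains and ages of the mice, nor the day of graft removal, nor whether grafts were pooled. The 5 allograft groups shared a transplantation across a donor-recipient difference, which the syngraft lacked, and no untransplanted heart was on an array.

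Graft rejection is driven by recipient T cells that recognise donor antigen, make interferon-gamma and kill graft cells. Interferon-gamma acts on nearly every cell of the graft through its receptor and the JAK kinases. Interleukin 2 is the T cell growth factor whose transcription depends on calcineurin and NFAT, the step that CsA blocks, and interleukin 15 sustains NK and memory T cells through a shared receptor. Interleukins 1 beta and 6 come mainly from activated myeloid and stromal cells, and interleukin 10 restrains them. The p40 protein encoded by Il12b is a subunit of interleukins 12 and 23, and interleukin 12 and interleukin 18 together drive interferon-gamma production. Interleukin 33 is held in the nuclei of fibroblasts and endothelial cells and acts as an alarm signal when these cells are damaged. Nitric oxide synthases need BH4 as a cofactor, ABH4 is an analog that carries an amino group in place of the oxo group at the pterin ring and antagonises the cofactor, and NIL inhibits the inducible synthase.

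Start regions are shown for Ifng, Il6 and Il1b, whose signals were lower with CsA and with BH4 than in the untreated allograft, and for Il33, whose signal was higher with both. This choice was made after the values were seen. RefSeq start regions, 250 bases before to 50 bases after a gene's start on build GRCm38.p6, were matched by symbol for 7 of the 9 genes. Il33 has 2 starts in that table, so there were 8 windows. Each is written in the direction of the gene, and capitals mark the NFAT core GGAAA or its reverse complement TTTCC.
Ifng, chr10:118440796-118441095, plus strand: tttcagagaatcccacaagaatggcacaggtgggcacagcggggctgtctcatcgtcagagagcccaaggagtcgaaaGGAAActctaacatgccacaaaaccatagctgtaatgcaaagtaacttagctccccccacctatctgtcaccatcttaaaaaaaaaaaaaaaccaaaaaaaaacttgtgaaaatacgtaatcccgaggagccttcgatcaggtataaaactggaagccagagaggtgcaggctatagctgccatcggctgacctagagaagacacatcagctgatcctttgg
Il6, chr5:30012864-30013163, plus strand: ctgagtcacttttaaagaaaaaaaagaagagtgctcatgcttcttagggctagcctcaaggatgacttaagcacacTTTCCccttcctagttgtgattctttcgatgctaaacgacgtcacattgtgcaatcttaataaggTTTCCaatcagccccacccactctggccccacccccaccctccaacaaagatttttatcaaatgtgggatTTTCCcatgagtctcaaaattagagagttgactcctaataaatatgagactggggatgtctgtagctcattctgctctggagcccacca
Il1b, chr2:129371090-129371389, minus strand: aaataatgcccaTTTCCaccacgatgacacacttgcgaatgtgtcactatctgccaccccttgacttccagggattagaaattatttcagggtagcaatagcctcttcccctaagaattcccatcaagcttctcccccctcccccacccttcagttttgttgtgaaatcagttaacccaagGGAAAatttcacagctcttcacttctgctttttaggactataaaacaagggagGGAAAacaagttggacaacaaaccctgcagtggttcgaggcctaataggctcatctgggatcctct
Il33 first start, chr19:29924863-29925162, plus strand: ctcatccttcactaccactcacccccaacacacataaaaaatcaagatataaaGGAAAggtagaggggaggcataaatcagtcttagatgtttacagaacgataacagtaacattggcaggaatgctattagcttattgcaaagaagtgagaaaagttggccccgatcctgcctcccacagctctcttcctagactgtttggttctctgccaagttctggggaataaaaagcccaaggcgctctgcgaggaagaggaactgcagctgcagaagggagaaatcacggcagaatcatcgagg
Il33 second start, chr19:29945540-29945839, plus strand: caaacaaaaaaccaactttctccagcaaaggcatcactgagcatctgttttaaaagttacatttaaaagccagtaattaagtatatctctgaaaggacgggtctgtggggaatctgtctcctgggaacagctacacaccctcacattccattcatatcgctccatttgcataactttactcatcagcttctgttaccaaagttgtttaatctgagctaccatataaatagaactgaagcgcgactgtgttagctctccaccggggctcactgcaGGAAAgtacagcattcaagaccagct
The NFAT core, searched on both strands, was in all 8 windows, and in 61.3% of the 32851 start regions of all genes. Il6, Il1b and Il12b had 3 matches each, as 9.42% of all start regions had 3 or more, while Il2 had 2, and Ifng, Il18 and each Il33 start had 1. The kappa B letters GGGA, then any base, then TTTCC, which contain the reverse complement of the NFAT core, were found in Il6 alone among the 8 windows and in 0.411% of all start regions. That match in Il6 began 44 bases upstream of the start, and its last 5 letters are the final capitals in the Il6 line. The letters TATAAA on either strand were in 6 of the 8 windows, against 13.6% of all start regions. They began 30 bases upstream in Ifng, 31 in Il2 and in Il1b, and 29 at the second Il33 start. In Il18 they lay 175 bases upstream on the opposite strand, and at the first Il33 start 203 bases upstream. The search also covered the motifs named AP-1, GAS and ISRE core. AP-1 was in 1 of the 8 windows, that of Il6, against 7.81% of all start regions. GAS was in 1 of the 8, that of Ifng, against 8.30%. The ISRE core was in 0 of the 8, against 3.44%. Letters that match are a description of the sequence and not a measurement of binding.

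The deposited values were linear signal intensities with no detection call, so 2 yardsticks for low signals were used. The first was a floor at the 30th percentile of all values, 34.8 after each array had been rescaled to a common median, which is 32.5 to 37.0 in deposited units. Folds and log2 differences below are from the rescaled values, so they differ slightly from ratios of the deposited signals printed beside them, and "at least" marks a fold against the floor. The second yardstick was the signal of 36 genes of retina, testis, pituitary, kidney and other tissues that neither heart nor leukocytes are known to make. Their median was 19.2 to 41.5 and their 90th percentile 63.2 to 115 per array, so signals under about 100 on these arrays lie where unrelated probe sets also lie. The brightest of the 36 had 298 to 427 per array, so a signal above 100 is not by itself clear of background. The 27 control probe sets for Bacillus transcripts had a median of 3.1 to 12.6 per array.

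Against these yardsticks the genes fell into 3 groups. Ifng, Il6, Il1b, Il15 and Il18 were above both yardsticks on at least 4 arrays. Ifng and Il6 with CsA, and Ifng, Il6, Il15 and Il18 in the syngraft, lay below the 90th percentile of the tissue-restricted genes, so folds against these signals are uncertain. Il33 was above both on 4 arrays and near the floor on the other two. Il2, Il10 and Il12b were near background: Il2 was at the floor on all 6 arrays, the brighter Il12b probe set exceeded the floor on 3, and Il10 exceeded it on 6 but the 90th percentile of the tissue-restricted genes on 1. Values of these 3 genes are given as deposited, and little can be read from their ratios.

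**Figure D1:**
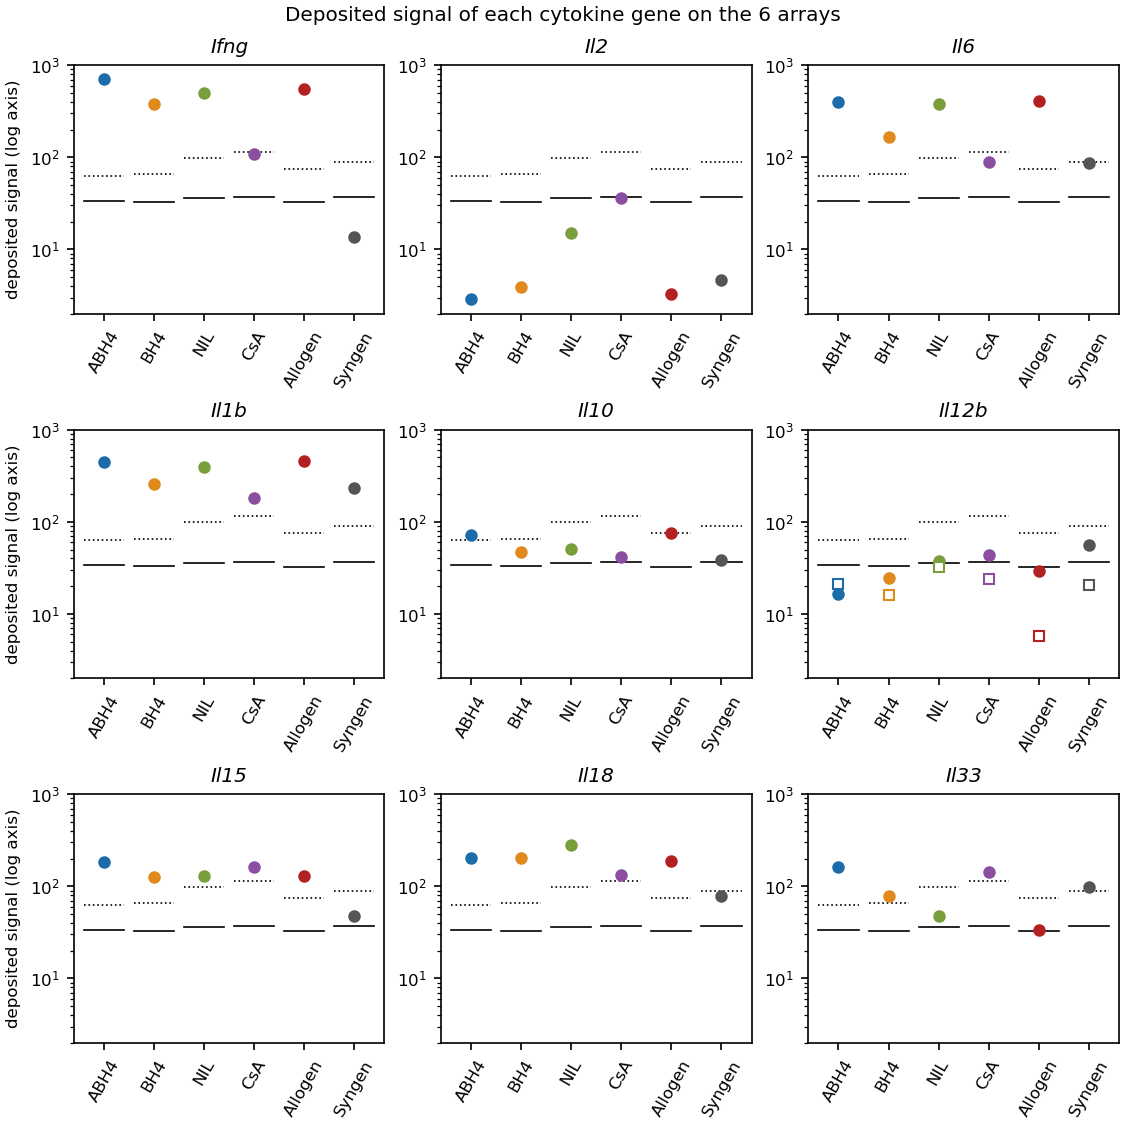
Deposited signal on a log axis for the 9 genes, with 1 point for each array; open squares are the second Il12b probe set, solid bars the floor and dotted bars the 90th percentile of 36 tissue-restricted genes on that array. Ifng is between 108.6 and 712.8 on the 5 allografts and at 13.8 on the syngraft, while Il2 stays at or under the floor on every array.

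The untreated allograft against the syngraft sets an alloimmune graft beside a graft without a donor-recipient difference. Ifng, Il6, Il15, Il18, Il1b and Il10 had higher signals in the allograft, and Il33 had a lower signal. At least 2-fold higher were 6 of the 9 genes, where 6.87% of all 12393 genes were (4 of 9 without rescaling or with the floor raised to the 50th percentile), and at least 2-fold lower was 1 of 9, where 4.81% were. The median log2 difference of the 9 genes was 1.15 and that of all genes 0.00. With 1 array per group no test was possible here or in any comparison below, no difference has a replicate check, and strain or single-graft differences cannot be told apart from alloimmunity. The number of arrays limits the precision of every value.

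Ifng, made by activated T and NK cells, had a signal of 712.8 with ABH4, 377.1 with BH4, 500.5 with NIL, 108.6 with CsA and 546.4 in the untreated allograft, against 13.8 in the syngraft. All 5 allografts lay above the syngraft, and CsA stood apart below the other four. The untreated allograft exceeded the syngraft at least 16.8-fold, a bound because the syngraft was at the floor. That bound, 4.07 on the log2 scale, moved to 5.49 when the floor was lowered to the 10th percentile and to 2.81 when it was raised to the 50th.

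Il6, a cytokine of the acute-phase response, had signals of 395.7 with ABH4, 165.7 with BH4, 381.0 with NIL, 88.4 with CsA and 405.1 in the untreated allograft, against 86.8 in the syngraft. ABH4, NIL and the untreated allograft lay close together at the top, BH4 lay between, and CsA was at the syngraft's level. The CsA and syngraft signals were both below the 90th percentile of the tissue-restricted genes on their arrays, 115 and 89.9. The untreated allograft was 5.32-fold above the syngraft.

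Il1b, the secreted form of interleukin 1 made by myeloid cells, had signals of 443.1 with ABH4, 258.1 with BH4, 394.0 with NIL, 179.2 with CsA and 453.0 in the untreated allograft, against 232.8 in the syngraft. The syngraft fell inside the range of the allografts, above CsA. The untreated allograft was 2.22-fold above the syngraft, a log2 difference of 1.15, and in the deposited values without rescaling the difference was 0.96, short of 2-fold.

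Il15, which T and NK cells receive from neighbouring cells that display it on their surface, had signals of 185.0 with ABH4, 125.2 with BH4, 130.3 with NIL, 160.3 with CsA and 128.9 in the untreated allograft, against 47.2 in the syngraft. The allografts spanned a narrow range, all above the syngraft, and CsA was second from the top. The untreated allograft was 3.11-fold above the syngraft, a log2 difference of 1.64 that was 0.73, short of 2-fold, when the floor was raised to the 50th percentile.

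Il18, an interleukin 1 relative that caspase 1 activates, had signals of 202.1 with ABH4, 205.0 with BH4, 282.4 with NIL, 132.8 with CsA and 188.6 in the untreated allograft, against 79.2 in the syngraft. NIL was highest and CsA lowest among the allografts, and none came down to the syngraft. The untreated allograft was 2.71-fold above the syngraft.

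Il33, the nuclear alarm cytokine, had signals of 164.1 with ABH4, 78.8 with BH4, 48.1 with NIL, 144.0 with CsA and 33.8 in the untreated allograft, against 98.6 in the syngraft. ABH4 and CsA lay above the syngraft and the untreated allograft lowest, next to the floor, where 11 of the 36 tissue-restricted genes had the same signal or more. The untreated allograft was 2.56-fold below the syngraft, a log2 difference of -1.36, which shrank to -0.16 when the floor was raised to the 50th percentile.

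Among the genes near background, Il10 had signals of 72.2 with ABH4, 46.7 with BH4, 50.9 with NIL, 41.7 with CsA and 74.9 in the untreated allograft, against 38.7 in the syngraft. Its 2.20-fold difference between untreated allograft and syngraft was 0.95 on the log2 scale without rescaling, short of 2-fold, and lay within the range of the tissue-restricted genes. Il2 had signals of 2.9 with ABH4, 3.9 with BH4, 14.9 with NIL, 36.1 with CsA and 3.3 in the untreated allograft, against 4.7 in the syngraft. The highest Il2 signal was thus on the CsA array, at a level where 19 of the 36 tissue-restricted genes had the same signal or more. The brighter Il12b probe set had 16.3 with ABH4, 24.7 with BH4, 37.6 with NIL, 43.3 with CsA and 29.2 in the untreated allograft, against 55.7 in the syngraft. The other Il12b probe set had 21.2, 15.9, 32.6, 23.9 and 5.7 on the same 5 allografts, against 20.4 in the syngraft, and ordered the arrays differently.

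Receptors, inhibitors and processing enzymes of the same cytokines also differed between the untreated allograft and the syngraft. Il18bp, a secreted protein that captures interleukin 18, was 17.5-fold higher, at 1200.2 in the allograft against 78.1 in the syngraft. Il1rn, the natural antagonist of the interleukin 1 receptor, was 8.64-fold higher, at 612.3 against 80.7 in the syngraft. Il1r1, the signalling receptor of interleukin 1, ran opposite, at least 2.81-fold lower, with 12 in the allograft and 103.9 in the syngraft. In the list of interleukin 1 family receptors and processing genes, 8 of 14 were at least 2-fold higher and 1 lower (median log2 difference 1.42). Of all genes 6.87% were higher and 4.81% lower. Casp1, the protease that cuts the precursors of interleukins 1 beta and 18, was at least 8.45-fold higher, with 274.2 in the allograft and 33.2 in the syngraft.

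The receptor chains differed among themselves. Il2rb, the beta chain that interleukins 2 and 15 share, was at least 11.5-fold higher, at 372.4 against 16.7 in the syngraft, while Il2ra, the chain specific to interleukin 2, had 78.1 in the allograft and 58.5 in the syngraft. Il15ra, which presents interleukin 15, was 3.54-fold higher, at 317.7 against 102.3 in the syngraft. Il10ra, the ligand-binding chain for interleukin 10, was at least 5.04-fold higher, at 163.7 against 12.8 in the syngraft, and Il10rb, a chain that several cytokines share, had 578.5 and 563.8. Il18r1, a chain of the interleukin 18 receptor, was at least 4.69-fold higher, with 152.2 in the allograft and 7.8 in the syngraft. Il18rap, another chain of that receptor, was 1.32-fold higher, with 95.9 in the allograft and 82.6 in the syngraft.

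The chains of the interferon-gamma receptor were both within 1.5-fold: Ifngr1 had 326.6 in the allograft and 546.1 in the syngraft, and Ifngr2 had 458.2 and 455.1. Of the genes that interferon-gamma induces, 21 of 21 measured exceeded the syngraft by 2-fold or more, where 6.87% of all genes did (median log2 difference 3.10). Cd274, an inhibitory ligand of T cells, was 33.4-fold and Gbp2, a guanylate-binding protein, 27.5-fold higher. The interleukin 6 receptor chains Il6ra and Il6st were 1.12-fold and 1.41-fold lower, while Socs3, a feedback inhibitor that interleukin 6 induces, was 3.18-fold higher. Timp1, from the same list of interleukin 6 receptors and targets, was 1.80-fold lower. Tbx21, a transcription factor that drives interferon-gamma production, had 116.2 in the allograft and 30.3 in the syngraft, at least 3.58-fold apart. Il12a, which encodes the partner of p40, had 29.5 in the allograft and 15.9 in the syngraft, both at the floor. Of 15 further interleukins on the array, none was at least 2-fold higher, where 6.87% of all genes were. Il20 was 2.15-fold lower, with 41.7 in the allograft against 102 in the syngraft. The allograft signal lay below the 90th percentile of the tissue-restricted genes on that array, 75.4. Il20 was the only 1 of the 15 at least 2-fold lower, where 4.81% of all genes were. On the allograft array 9 of the 15 did not exceed the floor, so these could not be called higher. On the syngraft array 8 did not exceed it, so these could not be called lower. The counts therefore do not show that the other interleukins were unchanged.

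**Figure D2:**
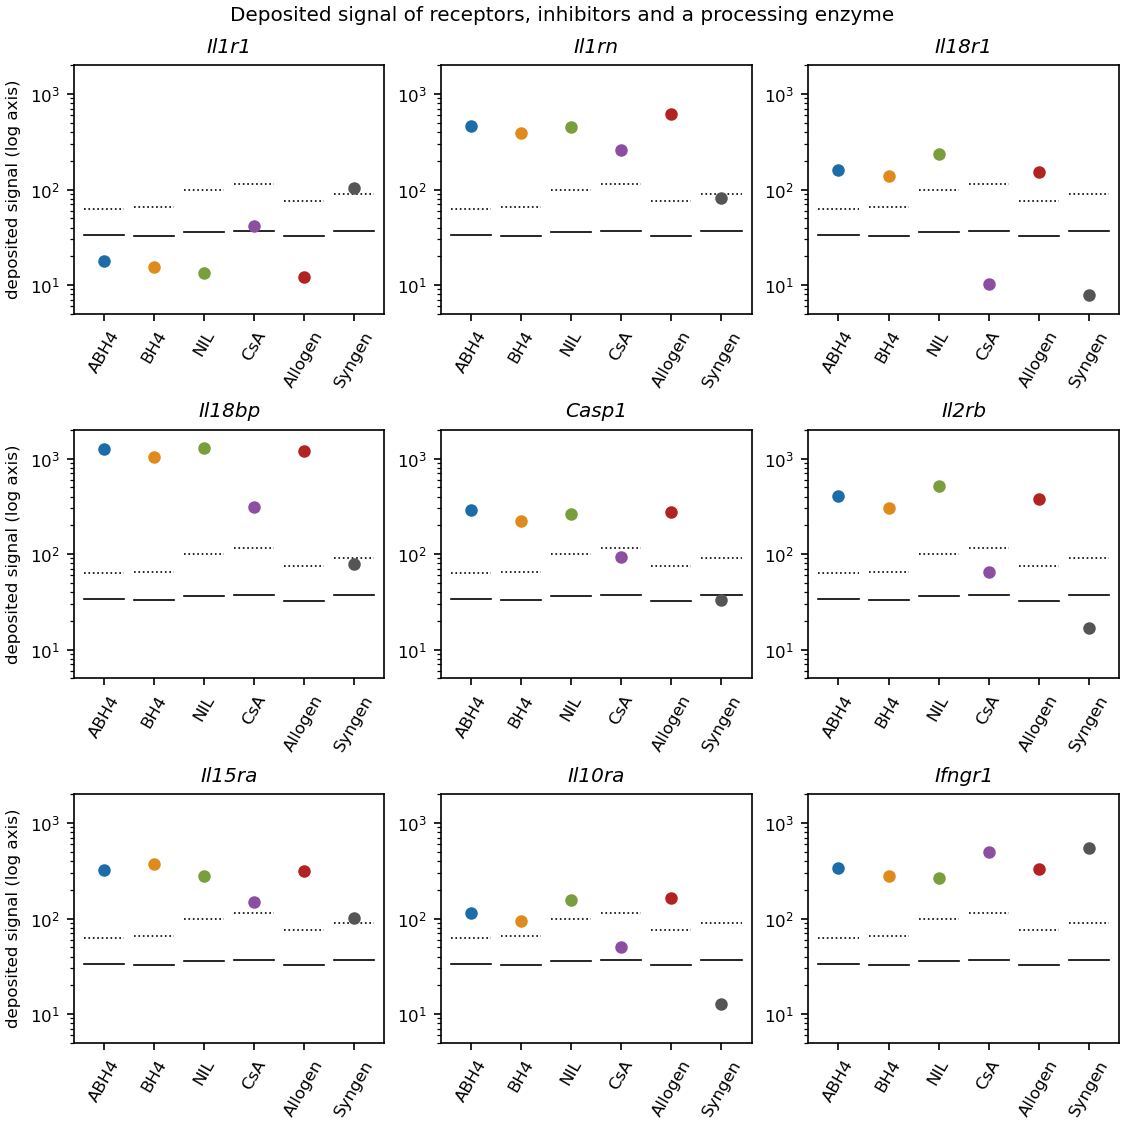
Deposited signal on a log axis of receptors (Il1r1, Il18r1, Il2rb, Il15ra, Il10ra, Ifngr1), inhibitors (Il1rn, Il18bp) and the protease Casp1, with 1 point for each array, solid bars at the floor and dotted bars at the 90th percentile of 36 tissue-restricted genes. Il1r1 is 103.9 on the syngraft and 41.5 or less on the allografts, whereas Il18bp is 78.1 on the syngraft and 312.3 or more on the allografts.

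T cell and NK cell genes also had higher signals in the untreated allograft than in the syngraft, in 9 of 12 and 7 of 9 by at least 2-fold. B cell and plasma cell genes did so in 1 of 7, where 6.87% of all genes did. In the NK cell list Klra1 and Klra8 were at the floor on all 6 arrays. Ncr1 was 2.23-fold higher, with 106.7 in the allograft and 54.5 in the syngraft. Whether the signals of the NK cell list came from NK cells or T cells was not tested. The 12 measured T cell genes had summed signals of 2974 with ABH4, 2199 with BH4, 3216 with NIL, 660 with CsA and 2606 in the untreated allograft, against 650 in the syngraft. Zap70 was the brightest of the 12 with CsA (279.8) and in the syngraft (355.3), against 246.5 in the untreated allograft, so it ran opposite to the sums. Of the 12, 6 were at the floor with CsA and 1 on each other allograft. On the syngraft 9 were at the floor, Cd3d, Cd3e and Cd3g among them. Cd4 was at the floor on all 6 arrays. In bulk RNA fewer cells of a type and less RNA per cell cannot be told apart. The 14 macrophage and monocyte genes were above the floor on every array, with summed signals from 17538 to 24002 on the allografts and 15927 on the syngraft. The cardiomyocyte genes Myh6, Tnni3 and Tnnt2 were at 3050.5 or more on all 6 arrays, while the atrial gene Myl7 was at the floor on all 6.

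CsA against the untreated allograft asks which cytokine transcripts differ under calcineurin inhibition. Ifng and Il6 were lowest relative to the untreated graft, Il1b and Il10 were lower by less, Il15 was not lower, and Il33 was higher. At least 2-fold lower were 4 of the 9 genes, where 4.06% of all genes were, and at least 2-fold higher was 1 of 9, where 3.21% were. The median log2 difference of the 9 genes was -0.69 and that of all genes 0.00.

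Ifng was 5.72-fold lower with CsA, a log2 difference of -2.52, and still above the floor. Il6 was 5.21-fold lower (-2.38), which brought it to 88.4, against 86.8 in the syngraft. With CsA both genes lay below the 90th percentile of the tissue-restricted genes on that array, 115. Il1b was 2.88-fold lower (-1.52). Il10 was 2.04-fold lower, a log2 difference of -1.03 that was -0.84 without rescaling, at signals near background. Il18 was 1.62-fold lower (-0.69) and Il15 was 1.09-fold higher (0.13), so the size of the difference varied widely among the genes. Il33 was 3.74-fold higher (1.90), and the log2 difference was 0.70 when the floor was raised to the 50th percentile.

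The receptor chains differed among themselves with CsA too. Il2rb was 6.56-fold lower, with 64.6 for CsA and 372.4 for the untreated allograft, and Il18r1 was at least 4.69-fold lower. Il10ra and Il15ra were 3.72-fold and 2.42-fold lower. Il18rap and Il10rb were 1.36-fold and 1.15-fold lower, and Ifngr1 and Ifngr2 were 1.35-fold and 1.11-fold higher. Il18bp was 4.37-fold, Casp1 3.32-fold and Il1rn 2.66-fold lower, although Il18bp stayed at 312.3 with CsA, against 78.1 in the syngraft. Il1r1 had 41.5 with CsA and 12 in the untreated allograft, at least 1.12-fold higher. In the interleukin 1 family list 5 of 14 genes were at least 2-fold lower and none higher, where 4.06% and 3.21% of all genes were. The acute-phase gene Saa3 had 127.7 with CsA and 2310.5 in the untreated allograft, which is 20.6-fold lower. Its signal in the syngraft was 1634.8, so CsA lay far below the syngraft as well. In the list of interleukin 6 receptors and targets, which holds Saa3, 2 of 11 genes were at least 2-fold lower with CsA, beside 4.06% of all genes. Timp1 of that list was 1.67-fold higher.

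Interferon-gamma induced genes were lower by less than Ifng itself: 10 of 21 were at least 2-fold lower, where 4.06% of all genes were. Their median log2 difference was -0.95. Psmb8, an immunoproteasome subunit, was 3.62-fold lower, and Cd274 2.84-fold lower. T cell genes were at least 2-fold lower in 10 of 12 (median -1.90), beside the same 4.06% of all genes. Cd3d was at 10.9 for CsA and 461.9 for the untreated allograft. Whether the T cell transcripts account for the lower cytokine signals was not tested.

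Of 11 transcripts known to depend on calcineurin in T cells, 1 was at least 2-fold lower with CsA and none higher, beside the 4.06% of all genes that were lower. That gene was Tnf, 2.57-fold lower, with 79.3 for CsA and 179.4 for the untreated allograft. Csf2, Il3, Cd40lg and Il4, named after their values were seen, were at the floor on the untreated allograft, as Il2 was, so for these a lower level with CsA was not detectable.

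**Figure D3:**
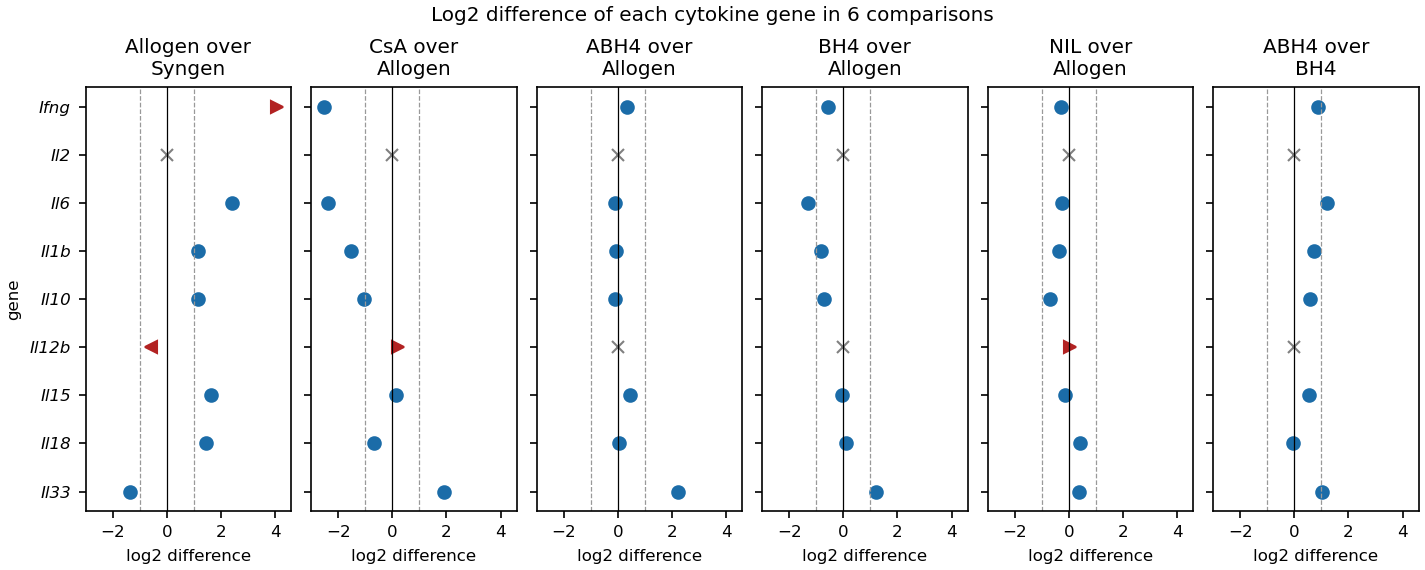
Log2 difference of each of the 9 genes in 6 comparisons; circles are measured on both arrays, triangles are bounds with 1 array at the floor, crosses have both arrays at the floor, and dashed lines mark 2-fold. Ifng and Il6 are at -2.52 and -2.38 for CsA over Allogen, while Il33 is at 1.90 there and at 2.23 for ABH4 over Allogen.

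BH4 against the untreated allograft asks the same for the natural cofactor. Il6 was 2.47-fold lower with BH4 (log2 difference -1.30), the only 1 of the 9 genes at least 2-fold lower, where 0.42% of all genes were. Il1b was 1.77-fold lower (-0.83), Il10 1.62-fold lower (-0.70) and Ifng 1.46-fold lower (-0.55). Il33 was 2.31-fold higher (1.21), the 1 of 9 that reached 2-fold upward, where 1.54% of all genes did. When the floor was raised to the 50th percentile the Il33 difference was 0.0055 on the log2 scale. Il15 and Il18 stayed within 1.08-fold.

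Around these genes, Tnf was 1.56-fold and Il10ra 1.75-fold lower with BH4. Il1rn was 1.57-fold lower, with 394.4 for BH4 and 612.3 for the untreated allograft. Others ran the opposite way. Lcn2, of the list of interleukin 6 receptors and targets, was 1.94-fold higher, with 901.3 for BH4 and 459.1 for the untreated allograft. Timp1 was 1.60-fold and the interleukin 12 receptor chain Il12rb1 1.55-fold higher. T cell genes had a median of -0.40, with 1 of 12 at least 2-fold lower, and interferon-gamma induced genes a median of -0.09, with none of 21 at least 2-fold lower. Salivary gland transcripts were present on the BH4 array, where 7 genes summed to 11716, against 118 in the untreated allograft, and their part in the BH4 values was not tested.

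ABH4 against the untreated allograft gave small differences except for Il33. Il33 was 4.69-fold higher with ABH4, a log2 difference of 2.23, and the 1 of 9 genes at least 2-fold higher, where 0.694% of all genes were. When the floor was raised to the 50th percentile it was 1.03 and still above 2-fold. None of the 9 was at least 2-fold lower, where 0.282% of all genes were. The other 6 measured genes stayed within 1.39-fold, with Il15 at 0.47 and Ifng at 0.33 on the log2 scale. Il2ra was 1.54-fold higher, at 124.9 for ABH4 and 78.1 for the untreated allograft.

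NIL against the untreated allograft gave differences of at most 1.63-fold for the 7 genes above the floor on both arrays. None was at least 2-fold higher or lower, where 1.33% and 0.791% of all genes were. Il10 was 1.63-fold lower (-0.71), Il18 1.35-fold higher (0.43), Il33 1.28-fold higher (0.36) and Il1b 1.27-fold lower (-0.35). Ifng was 1.21-fold and Il6 1.18-fold lower. Il12a had 74.1 with NIL and 29.5 in the untreated allograft, at least 2.06-fold higher, at signals within the range of the tissue-restricted genes. Il20 was 2.40-fold higher, with 110.7 for NIL and 41.7 for the untreated allograft. The untreated allograft signal lay below the 90th percentile of the tissue-restricted genes on its array, 75.4, and the NIL signal just above it, 99.5. Il20 was also 2.08-fold higher with CsA, at 98.8. Lcn2 was 2.11-fold lower with NIL, at 240.9, against 459.1 in the untreated allograft.

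ABH4 and BH4 are the pair of structurally related compounds, and were given at the same dose and interval, so their grafts can be set side by side. The cytokine signals were higher with ABH4 for 6 of the 7 genes measured on both arrays. Il6 was 2.33-fold higher (395.7 with ABH4 and 165.7 with BH4) and Il33 2.03-fold higher (164.1 and 78.8), and these 2 of 9 reached 2-fold, where 0.46% of all genes did. After quantile normalization the Il33 difference was 0.98 on the log2 scale, short of 2-fold. None of the 9 was at least 2-fold lower with ABH4, where 0.96% of all genes were.

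Ifng was 1.84-fold, Il1b 1.68-fold, Il10 1.51-fold and Il15 1.44-fold higher with ABH4 than with BH4, and Il18 was 1.04-fold lower. Il2ra was 2.30-fold higher, with 124.9 for ABH4 and 53.0 for BH4. T cell genes had a median log2 difference of 0.53 and NK cell genes of 0.54 in the same direction, against 0.00 for all genes, and interferon-gamma induced genes 0.10. The 7 salivary gland genes summed to 11716 with BH4 and 147 with ABH4, and their part in these differences was not tested. This was 1 pair of arrays, no interval for the difference can be given, and a difference under 2-fold does not show that the compounds act alike. All 4 treatment comparisons and the syngraft comparison above share the untreated allograft array.

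The Il33 signal was set beside the genes of the cells known to hold it. The 10 fibroblast genes had summed signals of 9896 with ABH4, 18083 with BH4, 4827 with NIL, 27322 with CsA and 4813 in the untreated allograft, against 31462 in the syngraft. NIL and the untreated allograft were lowest for both the fibroblast genes and Il33. The order of the others differed: Il33 was highest with ABH4, where the fibroblast sum was below those of BH4, CsA and the syngraft. Relative to the untreated allograft the fibroblast median was 1.12 with ABH4, 2.04 with BH4 and 2.64 with CsA on the log2 scale, against 3.02 in the syngraft. For Il33 the same values were 2.23, 1.21 and 1.90, against 1.36 in the syngraft. The 9 endothelial genes had summed signals of 1847 with ABH4, 1901 with BH4, 2132 with NIL, 2632 with CsA and 1729 in the untreated allograft, against 3061 in the syngraft. Their median relative to the untreated allograft was 0.40 with CsA and 0.57 in the syngraft, and between 0.00 and 0.05 with the other drugs. The part of these cells in the Il33 signal was not tested.

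**Figure D4:**
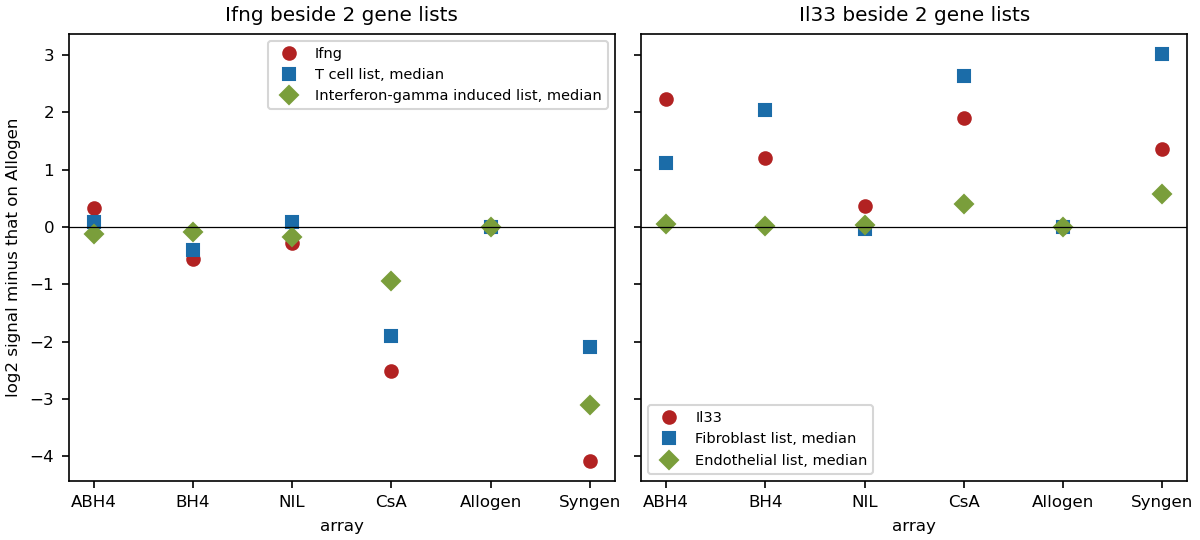
Log2 signal relative to the untreated allograft on the 6 arrays for Ifng beside the medians of the T cell and interferon-gamma induced lists (left), and for Il33 beside the medians of the fibroblast and endothelial lists (right). Ifng is at -2.52 with CsA where the induced list is at -0.95, and Il33 peaks at 2.23 with ABH4 where the fibroblast list is at 1.12.

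The genes with the most similar profiles were sought for the 7 members that were above the floor on at least 4 arrays and ranged over at least 1 log2 unit. Likeness was the mean absolute difference between log2 profiles over the 6 arrays, each centred on its own mean, among 7966 candidate genes, or 7967 for Il10. All 6 points come from the same arrays, so the values only describe these grafts. Nearest to Ifng were Trbv1, a T cell receptor segment (0.17), the chemokine Ccl5 (0.20), Acod1, which makes itaconate in macrophages (0.21), and the complement factor Cfb (0.21). Nearest to Il6 were Xcl1, a chemokine of activated T and NK cells (0.10), the T cell receptor chain Cd247 (0.13), the kinase Ikbke (0.17) and the T cell adaptor Sh2d2a (0.19).

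Nearest to Il1b were Rassf2 (0.10), the protein C receptor Procr (0.10), the T cell and myeloid adaptor Fyb (0.12) and Tnf (0.13). Nearest to Il15 were the monocyte chemokine Ccl2 (0.10), Mndal (0.13), Kat2a (0.15) and Fank1 (0.15). Nearest to Il18 were the tryptophan-degrading enzyme Ido1 (0.08), the chemokine Ccl4 (0.08), Enc1 (0.08) and the cathepsin Ctsh (0.11). Il10 had Med27 nearest (0.07), and 1049 genes lay within 0.25 of its shallow profile, against 5 for Ifng and 12 for Il6. No gene lay within 0.25 of Il33, whose nearest were Rimklb (0.26), the metalloreductase Steap4 (0.27), Dpep1 (0.29) and the sphingosine 1-phosphate receptor S1pr3 (0.29).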

How the data were processed

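The authors deposited 1 linear signal intensity for each of 22690 probe sets on each of 6 arrays. The scanner software, summarisation and background correction are not given in the sources used here. The mean of each array after trimming 2% from both ends was 200.1, so the deposited values had already been scaled. From these values each array was rescaled to a common median over 22626 probe sets other than controls, by -0.09 to 0.10 on the log2 scale. The 30th percentile of all rescaled values served as a floor for lower signals before the log2 step. A gene took its brightest probe set among those of exactly 1 gene symbol (20380 probe sets, 12393 genes). The 691 probe sets of several genes and 1555 without a gene entered no count. Signals in the text are as deposited, and folds are from the rescaled, floored values. "At least" marks a fold with 1 array at the floor.

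The labels gave each array a group of its own, so no test was made and calls are differences of at least 2-fold. Of 258 entries in 21 gene lists 233 were measured, and those without a probe set of their own were not analysed here. Named genes were the 9 genes, receptor chains, genes of the cytokine lists with large differences, defining genes of the cell type lists, and the nearest profiles. Not every measured receptor chain, and not every large difference, is given in each comparison. The members and lists were chosen with earlier results of these data known. Python 3.11.15, pandas 2.3.3 and numpy 2.4.6 were used, and the procedure was tested on simulated data.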

Additional observations from a re-analysis of the deposited data

How the results depend on the processing

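Each of 54 member differences (9 genes, 6 comparisons) was recomputed under 5 alternatives: no rescaling, quantile normalization, a floor lowered to the 10th percentile (6.47) or raised to the 50th (83.3), and the mean over a gene's probe sets. Of 270 recomputed values 22 moved across 2-fold or by over 0.5 on the log2 scale, 12 of them with the floor at the 50th percentile, and 0 called differences changed sign. Il15 under NIL, at -0.13, turned to 0.02 without rescaling. Members at least 2-fold higher in allograft than syngraft, 6 as reported, were 4 without rescaling (Il1b and Il10 lost), 4 with the floor at the 50th percentile (Il10 and Il15 lost) and 5 after quantile normalization (Il1b lost). With the floor at the 50th percentile the number of members at least 2-fold lower in allograft than syngraft was 0, and the number at least 2-fold higher was 0 for CsA and 0 for BH4, each over untreated allograft, because Il33 then lost its call. With the floor at the 10th percentile Il2 joined the higher members, giving 2 for CsA and 1 for NIL. Quantile normalization left 1 member higher for ABH4 over BH4. Il1b between allograft and syngraft was 0.94 after quantile normalization. Among all genes the counts depended on the floor. For allograft over syngraft 1295 were higher and 1378 lower at the 10th percentile, and 618 and 295 at the 50th, against 852 and 596 as reported and 633 and 860 without rescaling. For CsA over allograft the same counts were 1099 and 896, then 181 and 341, against 398 and 503, and 599 and 327 without rescaling. For ABH4, BH4 and NIL the higher counts were 538, 719 and 878 at the 10th percentile and 31, 95 and 18 at the 50th, against 86, 191 and 165. The lower counts were 440, 495 and 485, then 3, 13 and 29, against 35, 52 and 98. For ABH4 over BH4 they were 491 higher and 583 lower, then 14 and 46, against 57 and 119. Without rescaling NIL had 269 higher and 53 lower. With the mean over probe sets BH4 had 33 lower, NIL 108 higher and ABH4 over BH4 37 higher. No replicate could be left out, and no paired analysis was possible because each group has 1 array. The low signals of Il2, Il10 and Il12b limit what their ratios show.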
